A study of Mus musculus with 20 samples.

Results

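A set of 10 genes of BMP and Nodal signalling was followed through early mouse development after knockdown of the lysine acetyltransferase p300. They are the ligands Bmp4 and Nodal, the Nodal antagonists Lefty1 and Lefty2, the pseudoreceptor Bambi, the inhibitory Smads Smad6 and Smad7, and the target genes Id1, Id2 and Id3. The 10 genes were picked by symbol from the 25208 rows of the raw count table, and all 10 passed the filter on low counts that left 16603 genes for testing. They were chosen by pathway with earlier results of these data in view, in particular the lower Bmp4 count of knockdown embryos at the early 8-cell stage. That Bmp4 difference is therefore given as a description with no p of its own. Where a count or test includes those early 8-cell Bmp4 values, its outcome is listed but nothing is read from it.

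The series holds 20 Smart-seq2 libraries of total RNA from mouse embryos grown in KSOM medium from the zygote, 2 libraries in each of 10 groups. Control embryos have the genotype WT in the labels, and embryos of the P300 knockdown groups received siRNA; both were sampled at 4 stages, namely late 2-cell, 4-cell, early 8-cell, then late 8-cell. Late 8-cell embryos were also taken from the P300 knockdown I1394G rescue and the P300 knockdown NaCr rescue, so both rescue groups carry the knockdown too. What I1394G and NaCr stand for is not spelled out in the sources used here; by its form, I1394G names an amino acid substitution. Mouse strain, age of the females, the control siRNA and the number of embryos per library are not given in the sources used here. No label states that the 2 libraries of a group came from separate cultures, so p-values measure only the spread between these libraries, which may be technical.

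BMP ligands bind paired type I and type II receptors that phosphorylate SMAD1, SMAD5 and SMAD9, whereas Nodal acts through activin receptors on SMAD2 and SMAD3; both kinds of SMAD enter the nucleus with SMAD4. The ID proteins are helix-loop-helix factors without a DNA-binding region. They hold back basic helix-loop-helix transcription factors, and their genes are well known direct targets of BMP signalling. BAMBI resembles a type I receptor without the kinase, SMAD6 and SMAD7 block receptor signalling from inside the cell, and the LEFTY proteins keep Nodal from its receptors. In the mouse these pathways are known for patterning the embryo around implantation, later than the stages sampled here.

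The 2 ID genes on which the results turn differ in their promoters, which are shown because the RNAs moved in opposite directions between the late 8-cell knockdown and rescue groups. Sequences are from RefSeq on GRCm38.p6, 5′ to 3′ on the gene's strand, from 250 bases before to 50 bases after the transcript start. Of the 10 genes, 5 had an entry. The Id3 promoter is chr4:136143572-136143871 (plus strand) and the Id2 promoter is chr12:25096043-25096342 (minus strand). Capitals mark the letters GGCGCC, a palindrome at the core of BMP response elements, and the SMAD box CAGAC, which reads GTCTG on the other strand.
Id3: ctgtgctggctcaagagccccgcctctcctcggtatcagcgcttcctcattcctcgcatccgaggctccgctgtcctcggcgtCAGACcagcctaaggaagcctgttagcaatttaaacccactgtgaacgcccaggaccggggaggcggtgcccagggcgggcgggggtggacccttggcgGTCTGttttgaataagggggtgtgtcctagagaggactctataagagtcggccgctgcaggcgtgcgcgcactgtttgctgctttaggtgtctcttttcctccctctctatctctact
Id2: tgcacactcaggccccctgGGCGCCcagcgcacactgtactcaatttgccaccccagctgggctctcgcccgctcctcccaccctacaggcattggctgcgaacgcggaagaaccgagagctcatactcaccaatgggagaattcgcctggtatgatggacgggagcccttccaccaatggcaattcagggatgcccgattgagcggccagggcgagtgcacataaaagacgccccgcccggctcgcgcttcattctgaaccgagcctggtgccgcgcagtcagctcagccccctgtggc
Id3 held 2 SMAD boxes and no GGCGCC, whereas Id2 held 1 GGCGCC and no SMAD box. GGCGCC was found in 11.9% of 32544 RefSeq promoters of the same length and the SMAD box in 49.5%, on either strand. The promoters of Bmp4, Nodal and Smad6 held neither of these exact strings. Variants of the strings were not searched in any promoter, so a promoter without them may hold a related site. These matches describe letters in a short window and say nothing about binding.

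Total counts per library ran from 3202332 (siRNA late 8-cell replicate 1) to 24785201 (I1394G replicate 2). Levels are given as CPM, counts scaled to TMM-normalised library size, which compare a gene between libraries; levels of different genes are compared as FPKM, which are per length. Ep300, the targeted gene, was at 86.1 and 83.8 CPM in control and 22.6 and 29.9 CPM in siRNA late 2-cell embryos. In 4-cell embryos it was at 48.3 and 88.4 CPM in control and 11.4 and 19.1 CPM in siRNA libraries. It fell by 2.15 ± 0.37 on the log2 scale there (SE; edgeR adjusted p = 0.00128), and by 2.15 ± 0.37 at the early 8-cell stage (adjusted p = 0.000819), where the deposited FPKM were closer together, at 4.11 and 2.53 in control and 1.4 and 1.99 in siRNA embryos. At the late 8-cell stage it was at 22.03 and 15.2 CPM in control and 16.2 and 13.2 CPM in siRNA embryos (log2 difference -0.36 ± 0.37, edgeR adjusted p = 0.5). The target thus does not separate late 8-cell control from siRNA embryos. The rescue libraries had 14.8 and 16.2 CPM (I1394G) and 11.6 and 12.6 CPM (NaCr) of Ep300. The 12 embryo markers summed to between 891 and 6121 CPM per library, with Oog1 at 0 from the 4-cell stage on, Tdgf1 at 0 in all 8-cell groups and Cdx2 at 0 in siRNA early 8-cell embryos. In early 8-cell control replicate 2 the deposited counts and FPKM did not follow each other: across 7134 genes, each taken relative to its median on the log2 scale, they correlated at 0.247, against at least 0.961 in each other library. Without that centring, the FPKM column correlated at 0.968 and 0.954 with the siRNA early 8-cell columns and at 0.919 with its own replicate. Which column belongs to that library was not tested, so FPKM values are given beside the early 8-cell results that differ between the scales.

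Further features moved with the knockdown at the late 8-cell stage. The 12 embryo markers summed to 2154 to 2741 CPM in siRNA and 4251 to 4434 CPM in control embryos. Their sums were 4268 to 4367 CPM with I1394G and 5410 to 6121 CPM with NaCr. At an adjusted p under 0.05 (edgeR), 5 of the 12 were lower and 0 higher in siRNA than in control embryos. Over all genes, 28% were called in either direction. The siRNA libraries would have 15920 and 16801 genes with a count at an equal depth of 3202332, against 14477 and 14422 in controls, 15104 and 14999 in the I1394G group and 14675 and 14648 in the NaCr group. Summed RNA of 12 cumulus and granulosa cell markers was 11.4 to 19.2 CPM in siRNA, 1.39 to 1.77 CPM in control, 5.46 to 6.79 CPM in I1394G and 4.104 to 7.46 CPM in NaCr embryos. Of the 8 markers tested, 4 were higher in siRNA than in control embryos (median log2 difference of the 8, 4.69, against 0.06 over all genes). Fshr and Cyp19a1 were at 0 in the siRNA libraries, Foxl2 was at 0 and 0.653 CPM, and Tnfaip6 led the list with 6.90 and 9.39 CPM. Tnfaip6 was at 0.919 and 0.264 CPM in I1394G and 0.396 and 0.249 CPM in NaCr embryos. Cyp11a1 was instead higher in the rescues, at 3.22 and 3.26 CPM (I1394G) and 4.36 and 1.62 CPM (NaCr). It was at 0.531 and 0.899 CPM in siRNA and at 0 in control embryos, so the sums rest on different genes. Of 7 blood markers, Alas2 was at 2.12 and 1.14 CPM in siRNA, 0.513 and 0.0552 CPM in control, 1.38 and 1.14 CPM in I1394G and 0.264 and 1.24 CPM in NaCr embryos. The other blood markers were at 0 or 0.0408 CPM in every late 8-cell library. Late 2-cell libraries would have 16967 and 16684 genes in control and 16898 and 16839 in siRNA embryos at the same depth. The 12 cumulus and granulosa markers summed there to 15.5 to 16.3 CPM in control and 11.5 to 12.6 CPM in siRNA embryos. A high number of genes and a high sum of these markers were thus also seen at the late 2-cell stage. The late 2-cell sum was led by Cyp11a1, at 6.10 and 4.07 CPM in control and 4.23 and 5.65 CPM in siRNA embryos. In the 4-cell and early 8-cell groups the markers summed to 1.39 to 3.95 CPM. Those libraries would have 13388 to 14729 genes at the same depth. The part of these embryo, cumulus, granulosa and blood markers in the results below was not tested.

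Id3 had a median of 36.4 FPKM over the 20 libraries, against 9.05 FPKM for Id2 and 2.27 FPKM for Id1. Id2 had the higher mean FPKM in both late 2-cell groups (29.9 against 12.0 in control, 51.0 against 12.8 in siRNA) and in siRNA late 8-cell embryos (41.6 against 36.4). Id3 climbed in control embryos after the late 2-cell stage and was lower with the knockdown at every later stage. Control embryos had 11.02 and 8.35 CPM at the late 2-cell stage, 57.2 and 68.2 CPM at the 4-cell stage, 237.8 and 330.2 CPM at the early 8-cell stage, and 137.5 and 157.7 CPM at the late 8-cell stage. Knockdown embryos had 9.92 and 9.64 CPM, 21.9 and 14.4 CPM, 31.5 and 17.2 CPM, and 29.5 and 28.7 CPM at the same stages. The groups overlapped at the late 2-cell stage and were apart at the other 3. In bulk embryos, fewer expressing cells and less RNA per cell cannot be told apart.

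Against controls, Id3 fell by 1.80 ± 0.30 (log2, SE) at the 4-cell stage (edgeR adjusted p = 0.000905), by 3.54 ± 0.31 at the early 8-cell stage (adjusted p = 6.31e-06) and by 2.34 ± 0.30 at the late 8-cell stage (adjusted p = 3.65e-05). At the late 2-cell stage it was not called (adjusted p = 1). The size of the effect differed between stages in the joint test over the 4 stages on counts (adjusted p = 0.000706), and was not called on log2(FPKM + 1). The late 8-cell difference kept its call under every alternative run, and was -1.83 on the log2(FPKM + 1) scale. The early 8-cell difference was -1.65 on the log2(FPKM + 1) scale (limma, adjusted p = 0.171), where control replicates stood at 216 and 31.8 FPKM and siRNA replicates at 34.6 and 19.2 FPKM. Without that control column it was -3.02 (adjusted p = 0.000446). The 4-cell call was also lost on FPKM (adjusted p = 0.104) and with those 4 libraries alone (adjusted p = 0.0842).

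Id3 also separated the rescue groups from the knockdown. Late 8-cell embryos had 99.6 and 110.8 CPM in the I1394G group and 97.2 and 152.1 CPM in the NaCr group, all above the siRNA libraries. The difference from siRNA was 1.86 ± 0.30 for I1394G (log2, SE; edgeR adjusted p = 0.00129) and 2.10 ± 0.30 for NaCr (adjusted p = 0.000319); on log2(FPKM + 1) both kept their direction but not their call (limma, adjusted p = 0.117 and 0.0713). Against control, the I1394G group was at -0.49 (95% interval -1.08 to 0.11, adjusted p = 0.408) and the NaCr group at -0.25 (-0.84 to 0.35, adjusted p = 0.79). These intervals do not show that Id3 was back at the control level.

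**Figure D1:**
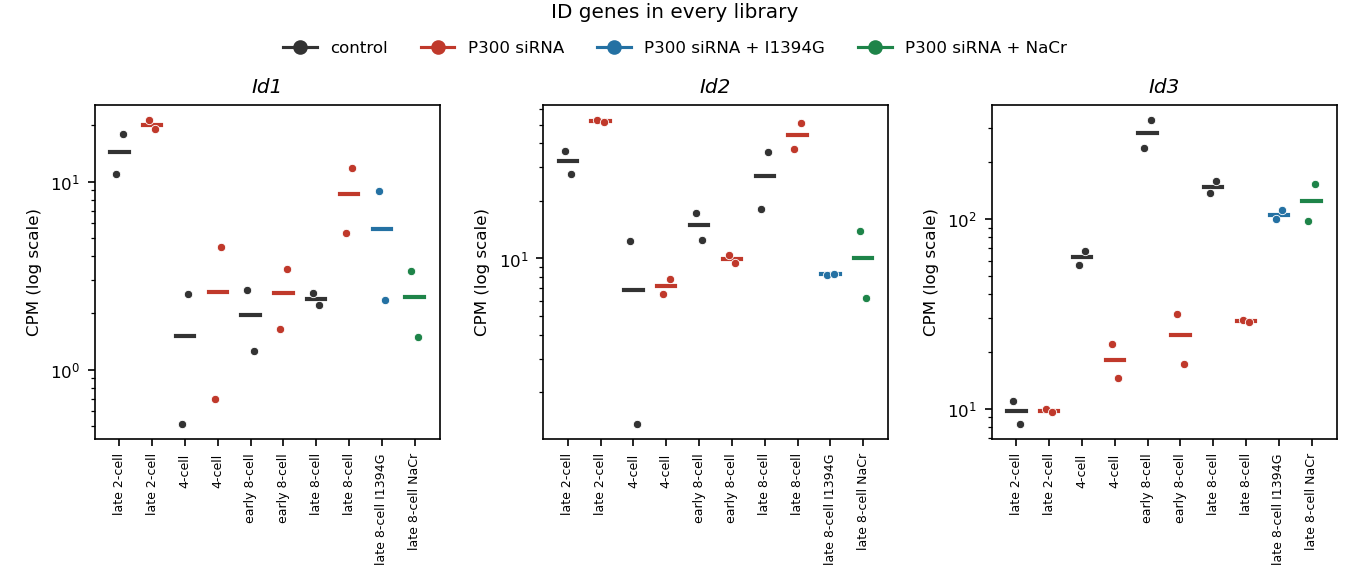
Levels of Id1, Id2 and Id3 in CPM on a log axis, by stage (axis labels) and group (colours); each point is 1 library and each bar the mean of 2 libraries. Id3 in knockdown embryos stayed between 9.64 and 31.5 CPM at all 4 stages, while control embryos reached 330.2 CPM.

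Id2 behaved otherwise. At the late 2-cell stage it was at 36.5 and 27.7 CPM in control and 52.5 and 51.8 CPM in siRNA embryos, above control in both libraries, without a call over all libraries (adjusted p = 1). In control embryos it was at 12.3 and 1.37 CPM at the 4-cell stage, 17.2 and 12.6 CPM at the early 8-cell stage and 18.1 and 35.8 CPM at the late 8-cell stage. The 4-cell control libraries thus lay far apart from each other. In FPKM, early 8-cell controls were at 11.7 and 3.94 and siRNA embryos at 8.58 and 7.95, which overlap. Knockdown embryos had 6.55 and 7.80 CPM at the 4-cell stage, 10.4 and 9.53 CPM at the early 8-cell stage and 37.4 and 51.1 CPM at the late 8-cell stage. The late 8-cell difference from control, 0.72 ± 0.59 (log2, SE), was not called (edgeR adjusted p = 0.381).

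In the rescue groups Id2 was low, at 8.22 and 8.32 CPM with I1394G and 14.0 and 6.22 CPM with NaCr. It fell by 2.43 ± 0.62 (log2, SE) against siRNA in the I1394G group (edgeR adjusted p = 0.0173) and by 2.12 ± 0.61 in the NaCr group (adjusted p = 0.0258). All 4 rescue libraries lay below both control libraries as well, but those differences, -1.70 for I1394G and -1.40 for NaCr, were not called (adjusted p = 0.143 and 0.312). The I1394G call was lost without replicate 1 or 2 of that group (adjusted p = 0.132 and 0.13) or without siRNA replicate 2 (adjusted p = 0.0682). The NaCr call was lost without NaCr replicate 2 (adjusted p = 0.231), siRNA replicate 1 (0.0537) or siRNA replicate 2 (0.113).

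Id1 was highest at the late 2-cell stage, with 11.02 and 17.9 CPM in control and 21.2 and 18.9 CPM in siRNA embryos. In the next 2 stages it lay between 0.516 and 4.51 CPM in every library, with overlapping groups. At the late 8-cell stage it was at 2.57 and 2.21 CPM in control, 5.31 and 11.8 CPM in siRNA, 8.88 and 2.33 CPM in I1394G and 3.37 and 1.49 CPM in NaCr embryos. Both siRNA libraries were above both controls, and the difference of 1.88 ± 0.80 (log2, SE) was not called (edgeR adjusted p = 0.0866).

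Because Id3 and Id2 differed in opposite ways between groups, the make-up of the ID RNAs was computed per length, as each gene's share of the summed ID level. Id3 made up 23.2% and 19.1% of ID RNA in late 2-cell controls. Its share was 85.6% and 95.7% in 4-cell, 94.0% and 96.9% in early 8-cell, and 89.8% and 84.6% in late 8-cell controls. In knockdown embryos it was 14.9% and 15.1%, 80.0% and 60.2%, 77.4% and 63.3%, and 47.6% and 37.4% at the same stages. The rescue groups had 88.1% and 93.1% (I1394G) and 88.00% and 96.3% (NaCr), far from the knockdown and overlapping the controls. The share in early 8-cell control replicate 2 was 86.8% by its FPKM column. These shares rest on the same counts as the tests above and were not tested again.

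**Figure D2:**
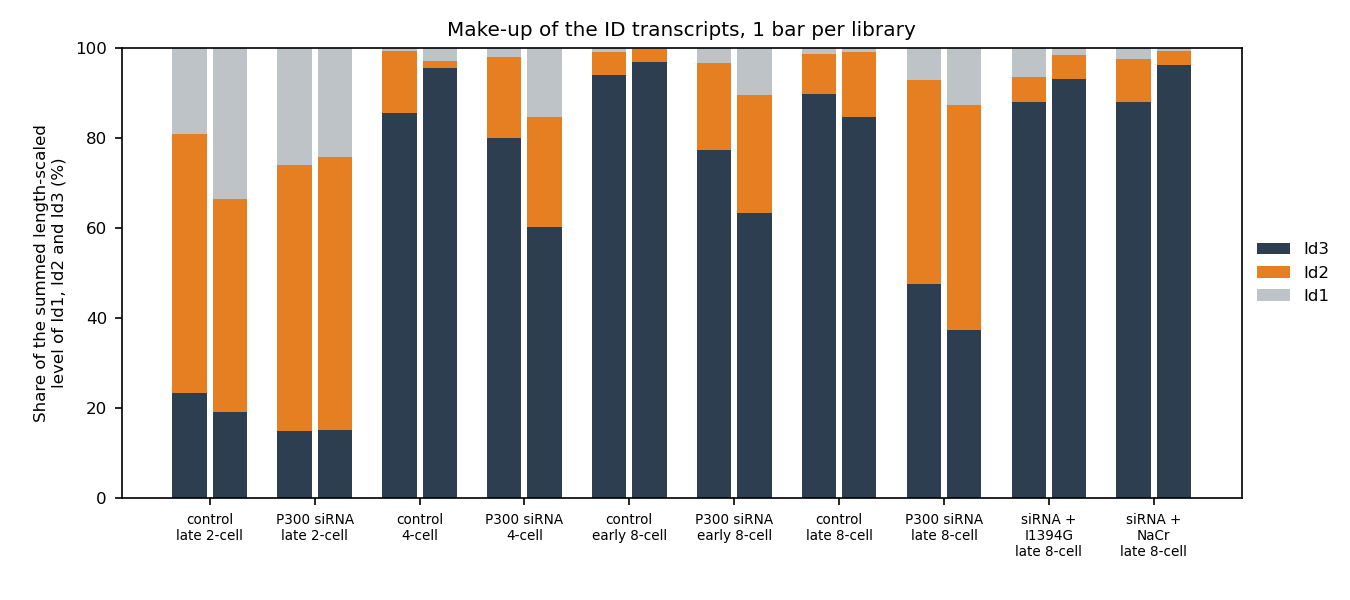
Share of Id1, Id2 and Id3 in the summed length-scaled ID RNA of each library, in percent, as stacked bars that start at 0. Id3 takes 37.4% and 47.6% in the late 8-cell siRNA libraries and at least 84.6% in the other late 8-cell libraries.

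Bmp4, the BMP ligand of the set, had a short peak in control embryos. It was at 2.35 and 2.09 CPM at the late 2-cell stage, 16.5 and 0 CPM at the 4-cell stage, 24.1 and 21.0 CPM at the early 8-cell stage and 0.821 and 0.496 CPM at the late 8-cell stage. The 4-cell controls disagreed completely, with 160 counts in one library and none in the other. Knockdown embryos had 5.25 and 4.08 CPM, 2.51 and 0.427 CPM, 0.609 and 0.459 CPM, and 0.265 and 2.37 CPM. At the early 8-cell stage the knockdown libraries held 7 and 4 counts against 245 and 234 in controls, which is the difference that was known when Bmp4 was picked. In FPKM those controls stood at 10.1 and 0.50, and the knockdown at 0.31 and 0.24.

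The low late 8-cell control levels of Bmp4, with 16 and 9 counts, are set against the same early 8-cell control values for which the gene was picked, so that step is a description too. From the late 2-cell to the 4-cell stage the difference was 1.86 (adjusted p = 0.202), and -7.88 (adjusted p = 0.000977) without 4-cell control replicate 1, so that 1 library set its direction. The same library set the direction of the 4-cell comparison of siRNA with control, which was -2.58 (adjusted p = 0.194) with it and 7.21 (adjusted p = 0.011) without it. Late 8-cell levels of Bmp4 were 0.459 and 0.396 CPM in I1394G and 0.660 and 1.12 CPM in NaCr embryos, and no comparison between late 8-cell groups called it.

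Nodal, the ligand of the SMAD2 and SMAD3 branch, was nearly silent in control embryos after the late 2-cell stage and was detected in every knockdown library at the 8-cell stages. Controls had 3.82 and 2.71 CPM at the late 2-cell stage, 0 and 0.458 CPM at the 4-cell stage, and 0 counts in all 4 libraries of the early and late 8-cell stages. Knockdown embryos had 2.04 and 3.65 CPM, 0 and 0.244 CPM, 0.696 and 0.459 CPM, and 2.39 and 10.6 CPM. The late 8-cell knockdown libraries differed among themselves, with 9 and 259 counts, and both were above every control library from the 4-cell stage on. Against a floor of 3 counts over the control group, Nodal was at least 81.3-fold higher in late 8-cell knockdown embryos (edgeR adjusted p = 0.000549), and this call held under every alternative run. That limit became 29.95-fold without siRNA replicate 2, 133-fold without siRNA replicate 1, and 39.2-fold or 42.1-fold without control replicate 1 or 2.

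At the early 8-cell stage the knockdown libraries held 8 and 4 Nodal counts, at least 4.101-fold above the floor of the control group, without a call (edgeR adjusted p = 0.0545); the limit was 1.96-fold or 2.15-fold without control replicate 2 or 1. The FPKM column of early 8-cell control replicate 2 lists Nodal at 0.74, although its count is 0. The knockdown effect on Nodal differed between stages (joint test, adjusted p = 0.0079). With the rescues Nodal was at 1.43 and 1.89 CPM (I1394G) and 0.792 and 1.37 CPM (NaCr), below both siRNA libraries and above both controls. Against siRNA these differences, -2.003 ± 0.95 and -2.65 ± 1.003 (log2, SE), were not called (adjusted p = 0.187 and 0.085). Against control, Nodal was at least 20.8-fold higher with I1394G (adjusted p = 0.0205) and at least 13.5-fold higher with NaCr (adjusted p = 0.0523). Without control replicate 1 or 2 these limits fell to 10.04-fold or 10.8-fold and to 6.53-fold or 7.01-fold. The I1394G call was lost without any 1 of the 4 libraries compared (adjusted p = 0.0697 to 0.197) and on log2(FPKM + 1) (limma, adjusted p = 0.382).

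Lefty1 and Lefty2, the Nodal antagonists, are close paralogs, so their reads may have been shared between them in counting. Lefty1 had at most 2.74 CPM in any library and Lefty2 at most 1.53 CPM, and the latter was at 0 in 13 of 20 libraries. Lefty1 was at 0 in both 4-cell controls and at 2.65 and 0.548 CPM (19 and 9 counts) in 4-cell knockdown embryos. This was at least 16.8-fold above the floor of 3 counts (edgeR adjusted p = 0.0308), a limit of 5.76-fold without siRNA replicate 1, 27.8-fold without siRNA replicate 2 and 5.16-fold without control replicate 2. The call was lost without control replicate 1 (adjusted p = 0.0623), control replicate 2 (0.166) or siRNA replicate 1 (0.126), and on log2(FPKM + 1) (limma, adjusted p = 0.123). In late 8-cell embryos Lefty1 was at 0.513 and 0.496 CPM in control and 1.06 and 2.74 CPM in siRNA libraries, and was not called (adjusted p = 0.296). Lefty2 was at 0.808 and 0.418 CPM in late 2-cell controls and at 0 in both siRNA libraries of that stage, and was called in no comparison.

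**Figure D3:**
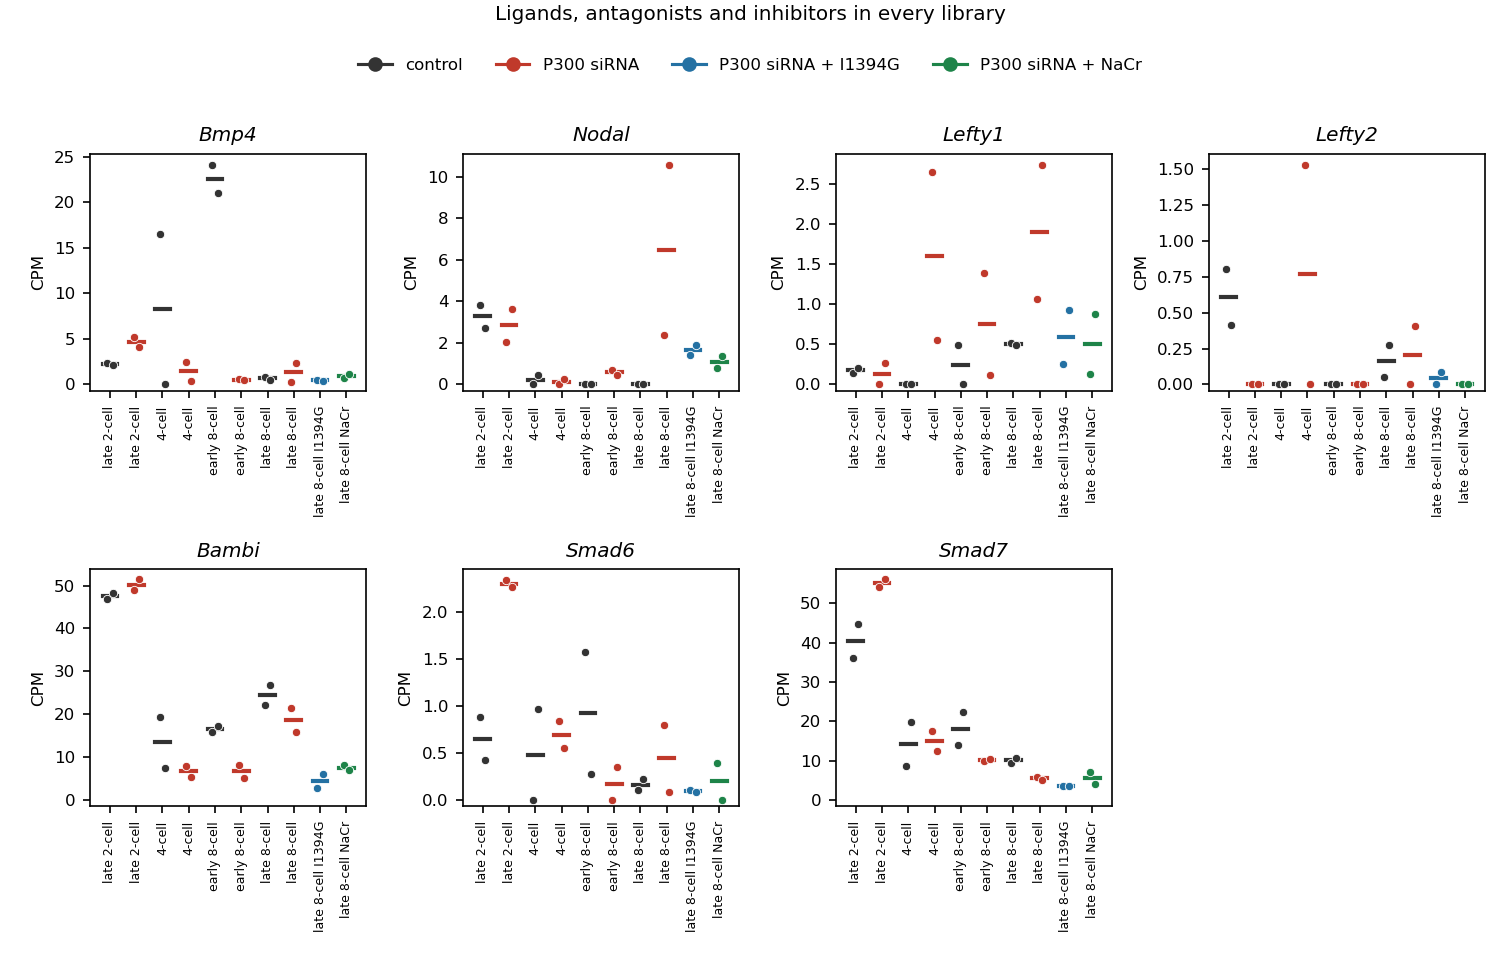
Levels of Bmp4, Nodal, Lefty1, Lefty2, Bambi, Smad6 and Smad7 in CPM by stage (axis labels) and group (colours), each panel on its own linear scale; each point is 1 library and each bar the mean of 2 libraries. Nodal is at 0 in all 4 control libraries of the 8-cell stages, and Bmp4 is high in both early 8-cell controls and in 1 of 2 control libraries at the 4-cell stage.

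Bambi, the BMP pseudoreceptor, was abundant at the late 2-cell stage, with 46.8 and 48.3 CPM in control and 49.0 and 51.4 CPM in siRNA embryos. Controls then had 19.4 and 7.47 CPM at the 4-cell stage, 15.8 and 17.2 CPM at the early 8-cell stage and 22.03 and 26.9 CPM at the late 8-cell stage. Knockdown embryos had 7.95 and 5.42 CPM, 8.09 and 5.16 CPM, and 21.5 and 15.9 CPM at these stages. The groups overlapped at the 4-cell stage and did not at the early 8-cell stage, where Bambi fell by 1.31 ± 0.43 (log2, SE; edgeR adjusted p = 0.0461). Leaving out any 1 of the 4 libraries lost that call (adjusted p = 0.073 to 0.238). On log2(FPKM + 1) the difference was -0.42 (limma, adjusted p = 0.51), with controls at 2.70 and 1.72 FPKM and siRNA embryos at 1.68 and 1.09 FPKM. Late 8-cell embryos differed by -0.40 ± 0.42 (adjusted p = 0.503).

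Bambi was also low in the rescue groups, at 2.76 and 6.12 CPM with I1394G and 8.12 and 6.84 CPM with NaCr. All 4 libraries lay below both the siRNA and the control libraries of that stage. Against siRNA, Bambi fell by 2.05 ± 0.44 (log2, SE) in the I1394G group (edgeR adjusted p = 0.00656) and by 1.30 ± 0.43 in the NaCr group (adjusted p = 0.0495). The first call was lost without I1394G replicate 1 (-1.59, adjusted p = 0.109), and the second without any 1 of its 4 libraries (adjusted p = 0.0663 to 0.249). Against control, it fell by 2.45 ± 0.44 in the I1394G group (adjusted p = 0.00483) and was at -1.70 in the NaCr group (adjusted p = 0.053). The call against control was lost without control replicate 2 (adjusted p = 0.0578) or I1394G replicate 1 (adjusted p = 0.103).

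Smad7, an inhibitor of both branches and itself a target gene of both, was at 36.0 and 44.8 CPM in control and 54.3 and 56.1 CPM in siRNA embryos at the late 2-cell stage. Both siRNA libraries were above both controls there, without a call (adjusted p = 1). From the 4-cell stage on it lay between 3.39 and 22.3 CPM, with groups that overlapped at the 4-cell stage and were apart at the early 8-cell stage. At the late 8-cell stage it was at 9.29 and 10.8 CPM in control, 5.84 and 5.06 CPM in siRNA, 3.57 and 3.39 CPM in I1394G and 6.998 and 3.98 CPM in NaCr embryos. The siRNA difference of -0.90 ± 0.40 (log2, SE) was not called (edgeR adjusted p = 0.105). With I1394G, Smad7 fell by 1.52 ± 0.39 against control (adjusted p = 0.0419), a call lost without any 1 of those 4 libraries (adjusted p = 0.175 to 0.272). Smad6, which acts mainly on the BMP branch, was at 0.882 and 0.418 CPM in control and 2.33 and 2.26 CPM in siRNA embryos at the late 2-cell stage, at most 1.58 CPM in any later library, and was called in no comparison.

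Counted over the 10 genes, the knockdown moved few of them at the late 2-cell, 4-cell and late 8-cell stages. The counts at these stages were near the share of all tested genes called. A call is an adjusted p under 0.05. At the late 2-cell stage none of the 10 was called, none was at an unadjusted p under 0.05 and DESeq2 called none; of all genes, edgeR called 0.00602%. At the 4-cell stage 2 of 10 were called (Id3 lower, Lefty1 higher) against 15% of all genes. At the early 8-cell stage 3 were called, all lower (Id3, Bambi and Bmp4), against 16.5% of all genes in either direction and 8.3% lower; Bmp4 was picked with this contrast known, so nothing is read from that count, and the Bambi call rests on the count scale. At the late 8-cell stage 2 were called (Id3 lower, Nodal higher) against 28%. The joint test called 3 (Id3, Nodal and Bmp4) against 16.3%; it includes the contrast for which Bmp4 was picked, so nothing is read from this count either, and on log2(FPKM + 1) it called Nodal alone. The median log2 difference of the 10 was 0.26, 0.09, -0.71 and 0.82 at the 4 stages in order, against -0.04, 0.00, 0.04 and 0.06 over all genes. The early 8-cell median includes the Bmp4 difference for which that gene was picked, so nothing is read from it.

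Between the late 8-cell groups, 3 of 10 were called with I1394G against siRNA (Id3 higher, Id2 and Bambi lower) and 3 of 10 with NaCr against siRNA (again Id3 higher, Id2 and Bambi lower). The shares of all genes called were 10.8% and 15.3%. These 2 comparisons share the siRNA libraries. I1394G against control called 3 (Nodal higher, Bambi and Smad7 lower) where 3.17% of all genes were called. NaCr against control called none of the 10 with edgeR, 4 were at an unadjusted p under 0.05 and DESeq2 called 2, where edgeR called 1.57% of all genes. Between the 2 rescues none of the 10 was called, none was at an unadjusted p under 0.05 and DESeq2 called none; edgeR called 0% of all genes. The intervals of that difference remained wide for several genes: the log2 difference of I1394G from NaCr was -0.24 for Id3 (95% interval -0.84 to 0.35), -0.31 for Id2 (-1.57 to 0.95), -0.75 for Bambi (-1.66 to 0.15) and 0.64 for Nodal (-1.42 to 2.71).

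**Figure D4:**
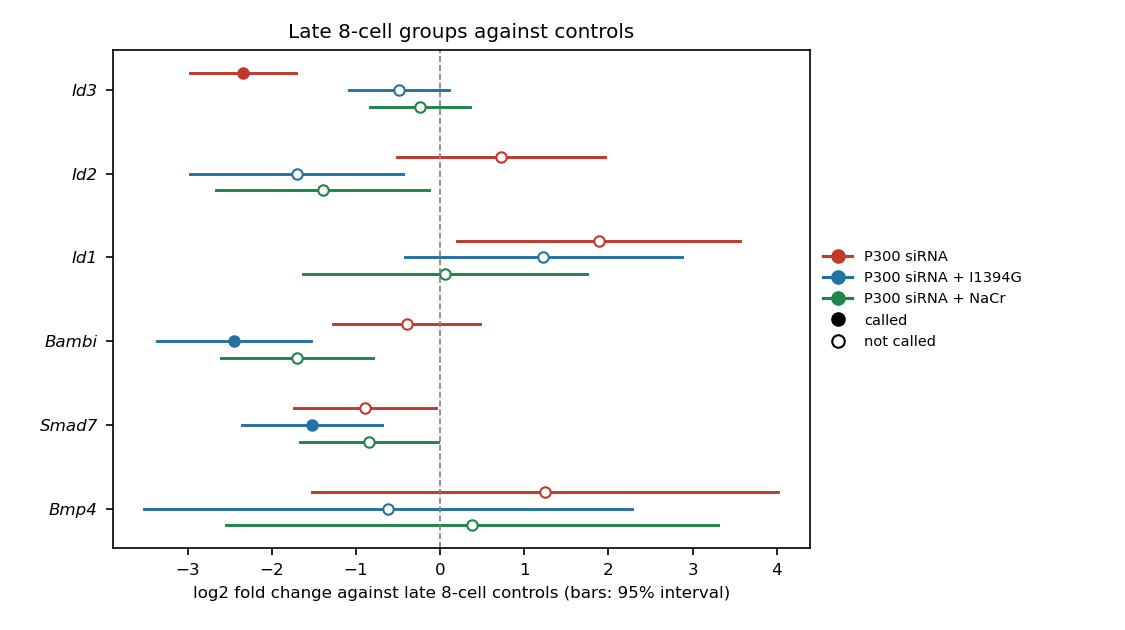
Log2 difference from control of Id3, Id2, Id1, Bambi, Smad7 and Bmp4 in the late 8-cell siRNA, I1394G and NaCr groups, from the edgeR fit; points are estimates (filled where called), bars are 95% intervals and the dashed line at 0 is the control level. Id3 is at -2.34 with siRNA and at -0.49 and -0.25 with the rescues, while Bambi is lowest with I1394G at -2.45.

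Along control development, the step from the late 2-cell to the 4-cell stage moved most of the set: 6 of 10 were called against 61.2% of all genes. Id3 rose by 2.69 ± 0.31 (log2, SE; edgeR adjusted p = 6.94e-07), where 27% of all genes rose. Lower were Id1 (-3.15 ± 0.84, adjusted p = 0.00346), Id2 (-2.29 ± 0.63, adjusted p = 0.00425), Bambi (-1.84 ± 0.42, adjusted p = 0.00114), Smad7 (-1.498 ± 0.38, adjusted p = 0.00259) and Nodal (-3.56 ± 1.08, adjusted p = 0.0097), where 34.2% of all genes fell. With only the libraries compared, the Id2 call was lost (-2.17, edgeR adjusted p = 0.0962). Its difference ran from -4.48 to -1.39 over fits without 1 library. The median over all genes at this step was -0.40. From the 4-cell to the early 8-cell stage only Id3 was called, at 2.18 ± 0.30 (adjusted p = 0.000268), against 1.13% of all genes; on log2(FPKM + 1) its difference was 0.50 (limma, adjusted p = 0.866). From the early to the late 8-cell stage Bmp4 and Id3 were called lower, against 26.2% of all genes, and nothing is read from this count, since it includes the early 8-cell Bmp4 values. The Id3 fall of 0.94 ± 0.28 (adjusted p = 0.0202) turned to a difference of 0.66 on log2(FPKM + 1), and lost its call without early 8-cell control replicate 2 (adjusted p = 0.179) or late 8-cell control replicate 1 (0.136) or 2 (0.0842).

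In the order of group mean CPM, Id3 ran from control early 8-cell (284 ± 65.3 CPM, SD, n = 2) through control late 8-cell (147.6 ± 14.2), NaCr (124.7 ± 38.8) and I1394G (105.2 ± 7.93) to control 4-cell embryos (62.7 ± 7.76). In FPKM the first of these groups had a mean of 123.8 ± 130.2 and the second 132.5 ± 12.4, so the top of the order turns with the scale. The late 8-cell control and NaCr groups overlapped, as did the NaCr and I1394G groups. Below them came siRNA late 8-cell (29.1 ± 0.535), siRNA early 8-cell (24.4 ± 10.1) and siRNA 4-cell embryos (18.2 ± 5.27), which overlapped too, and then both late 2-cell groups. Id2 ran from siRNA late 2-cell (52.2 ± 0.526 CPM) and siRNA late 8-cell embryos (44.3 ± 9.66) down to the 4-cell groups. Both Bambi and Smad7 had the late 2-cell groups at the top and the I1394G group at the bottom.

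Across the 10 group means of log2(CPM + 1), Id3 ran most like Majin (r = 0.99), Lasp1 (0.98) and Flt3l (0.97) among 10075 genes, and Id2 most like Myo6 (0.90), Myo1e (0.89) and Dcun1d4 (0.89). For Id1 the nearest genes were Syt9 (0.99), Septin6 (0.98) and Ctdspl (0.97). For Bmp4 they were Mex3b (0.95), Hopx (0.93) and Cebpg (0.92). The Bmp4 correlations include the control and knockdown values for which that gene was picked, so nothing is read from them. Bambi ran most like Add3 (0.96), Slc16a1 (0.96) and Cpsf6 (0.95), and Smad7 most like Arid2, Afdn and Ankrd28 (0.98 each). Within the set, Id1 correlated with Nodal at 0.84 and with Id2 at 0.81, Bambi with Id2 at 0.82, and Id1 with Id3 at -0.66. The 10 points share their libraries and stages, and these correlations are descriptions.

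Other genes of the pathway were counted from a list of 97, of which 82 were tested. The knockdown called 12 at the 4-cell stage (8 higher, 4 lower), 15 at the early 8-cell stage (9 higher, 6 lower) and 25 at the late 8-cell stage (20 higher, 5 lower). These are 14.6%, 18.3% and 30.5% of the 82, near the 15%, 16.5% and 28% of all genes. Shares of all genes called higher or lower were not computed for the late 8-cell comparisons, so nothing is read from the directions there. By role, the late 8-cell calls held 4 of 11 extracellular antagonists (all higher), 3 of 15 receptors and coreceptors (all higher), 2 of 9 BMP ligands (both higher) and 8 of 16 further target genes (7 higher, 1 lower). They also held 3 of 6 Nodal and activin ligands (2 higher, 1 lower), 3 of 10 signal-transducing Smads and partners (1 higher, 2 lower), 2 of 9 intracellular inhibitors (1 higher, 1 lower) and 0 of 6 ligand-processing genes. The rescues called 11 of 82 against siRNA with I1394G (2 higher, 9 lower) and 15 with NaCr (2 higher, 13 lower). These are 13.4% and 18.3%, near the 10.8% and 15.3% of all genes. Against control, each rescue called 1 of 82, in the lower direction (1.22%, where 3.17% and 1.57% of all genes were called).

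Several of these genes stood high or low in the late 8-cell siRNA libraries. Gdf3, a ligand that can act with Nodal, was at 97.2 and 117 CPM in control, 5.84 and 7.80 CPM in siRNA, 34.2 and 39.1 CPM in I1394G and 49.7 and 32.3 CPM in NaCr embryos. It fell by 3.93 ± 0.78 with the knockdown (log2, SE; edgeR adjusted p = 0.00127) and was higher than siRNA in both rescues (2.39 and 2.55). Gata3, a trophectoderm transcription factor, was at 81.3 and 83.1 CPM in control and 8.23 and 7.60 CPM in siRNA embryos (adjusted p = 0.00226). The rescue libraries had 18.1 and 26.8 CPM (I1394G) and 24.5 and 16.2 CPM (NaCr) of Gata3.

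On the other side, Tgfbr1, a type I receptor for TGF-beta, was at 19.6 and 20.3 CPM in control and 55.8 and 51.5 CPM in siRNA embryos. It rose by 1.43 ± 0.33 (log2, SE; edgeR adjusted p = 0.00451) and its log2 difference from siRNA was -1.596 in the I1394G group and -2.04 in the NaCr group. Twsg1, an extracellular BMP-binding protein, was at 3.34 and 3.199 CPM in control and 33.7 and 25.98 CPM in siRNA embryos, and rose by 3.18 ± 0.44 (adjusted p = 6.92e-05). Rgmb, a BMP coreceptor, rose by 1.48 ± 0.31 (adjusted p = 0.0023), and Smad5, a BMP-branch SMAD, by 1.495 ± 0.43 (adjusted p = 0.0165). Of the 10 signal-transducing Smads and partners tested, Smad5 was the 1 called higher, and 2 were called lower (30% called, against 28% of all genes). Id4, the remaining ID gene, was at 0.257 and 0.165 CPM in control and 6.64 and 2.45 CPM in siRNA embryos (adjusted p = 0.00171), against 0.510 and 0.352 CPM with I1394G and 0.396 and 0 CPM with NaCr. Fstl1, related to follistatin, was at 0.257 and 0.110 CPM in control and 10.9 and 8.99 CPM in siRNA embryos (adjusted p = 0.00385). These increases fall in the libraries that also had more genes detected and more RNA of cumulus and granulosa markers, whose part in them was not tested. Both siRNA late 8-cell libraries were above both controls for Tgfbr1, Twsg1, Rgmb, Smad5, Id4 and Fstl1. These genes were named for calls in these same data, so that separation is a description and adds no support.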

How the data were processed

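Smart-seq2 RNA-seq of 20 mouse embryo libraries, 2 in each of 10 groups taken from the labels, was analysed from 2 tables of the whole series. The authors deposited raw read counts per gene (25208 genes, integers, no normalization). They also deposited FPKM per gene, which are scaled to gene length and library size. Per the submitters' processing notes, the tools were bcl2fastq 2.20.0.422, cutadapt 4.1, HISAT2 2.2.1 and Cufflinks 2.2, with the build mm9; the counting program and its use of strand are not given in the sources used here.

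Counts were tested with edgeR 4.0.16 (R 4.3.3; TMM, filterByExpr, quasi-likelihood F test, 1 coefficient per group over all 20 libraries, 10 residual and 7.98 prior degrees of freedom). P-values were two-sided and Benjamini-Hochberg adjusted over all 16603 tested genes in each of 13 comparisons, of which 1 was a joint test with 3 degrees of freedom of the knockdown effect differing between the 4 stages. Standard errors and 95% intervals come from the F statistic. The script was tested on simulated data with known differences. Alternatives were DESeq2 1.42.0 (size factors, or its Wald test), no filter, limma 3.58.1 on log2(FPKM + 1) or log2(FPKM + 0.1) with genes of at least 1 FPKM in 2 libraries, only the libraries compared, a replicate block, and each library left out. A limma fit without the FPKM column of early 8-cell control replicate 2 was added after seeing the data.

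The members and lists were chosen with earlier results of these data known. All 10 members are named; of each other pathway list, up to 2 called genes with the lowest adjusted p per comparison could be named, and the genes most like a member are the 3 with the highest Pearson r among genes reaching a group mean of 10 CPM. Where a group had no counts, a floor of 3 counts over the group was used. Counting limits precision below about that floor.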

Additional observations from a re-analysis of the deposited data

Results flagged for a closer look

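The knockdown effect differed between the 4 stages in the joint edgeR test for 3 of the 10 genes. For Id3 (adjusted p = 0.000706) the log2 difference from control was -3.54 at the early and -2.34 at the late 8-cell stage on counts, but -1.65 and -1.83 on log2(FPKM + 1), where the joint test called Nodal alone. For Nodal (adjusted p = 0.0079) both late 8-cell knockdown libraries had counts and both controls had none. On counts, these 2 genes kept the call in each of 16 fits that left out 1 library. For Bmp4 (adjusted p = 0.0497) the test includes the early 8-cell contrast for which the gene was picked, so nothing is read from it, and the call was lost in 12 of those 16 fits.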

How the results depend on the processing

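Of 44 results for single genes called under at least 1 setting, 25 were called as reported and 7 of these kept the call under each alternative. Fits on FPKM moved most counts of called genes (limma with a pseudocount of 1 and of 0.1): 0 and 1 at the 4-cell stage, 0 and 0 at the early 8-cell stage, 1 and 1 for I1394G against control, 0 and 0 from the 4-cell to the early 8-cell stage, 0 and 0 from the early to the late 8-cell stage (1 without the doubtful FPKM column), and 1 and 1 for the difference between stages. Using only the libraries compared gave 1 called gene at the late 2-cell stage (Id2), 0 at the 4-cell stage, 4 at the late 8-cell stage, 5 for I1394G against control and 3 for NaCr against control. Without the filter, 5 were called for NaCr against siRNA and 3 for NaCr against control. NaCr against control also gave 1 with DESeq2 size factors and 2 with the DESeq2 Wald test.

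Directions reversed for Bmp4 at the 4-cell stage (-4.22 to 7.21 over fits without 1 library, 7.21 without control replicate 1), for Bmp4 from the late 2-cell to the 4-cell stage (-7.88 without that library to 2.89 without control replicate 2, -0.72 on log2(FPKM + 0.1)), for Id2 at the 4-cell stage (-0.77 without control replicate 2 to 2.38 without replicate 1), for Nodal at the early 8-cell stage (-0.034 on log2(FPKM + 1)) and for Id3 from the early to the late 8-cell stage (0.66 and 0.67 on FPKM). The cause was not tested.

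Leaving out 1 library at a time, the count of called genes ranged over 0 to 0 at the late 2-cell stage, 1 to 3 at the 4-cell, 1 to 2 at the early 8-cell and 2 to 2 at the late 8-cell stage. It was 1 to 3 for I1394G and 1 to 2 for NaCr against siRNA, 0 to 1 for I1394G and 0 to 0 for NaCr against control, and 0 to 0 between the rescues. It was 6 to 7, 1 to 3 and 0 to 2 for the control steps in order, and 2 to 4 for the difference between stages. The remaining library of such a group is assumed to vary like the other groups.

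Replicate numbers did not pair the samples throughout: deviations of same-numbered libraries correlated at -0.10 to 0.43 over 45 pairs of groups (median 0.001), above 0.1 in 5. Whether some groups were paired was not tested further. With the replicate block, NaCr against control had 1 called gene (Nodal) instead of 0, and Bambi lost its call for NaCr against siRNA (adjusted p = 0.0521). The joint test was not run with DESeq2. Low counts limit Lefty1, Lefty2, Smad6 and Nodal.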
